A study of Mus musculus with 12 samples.

Results

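The comparison described here is that of wild-type mouse embryonic fibroblasts 4 days after expression of the reprogramming factors against the same kind of cells before reprogramming. Its members were chosen by their labels, 3 arrays titled as wild type on day 4 and 3 titled as wild type on day 0, which makes 6 of the 12 arrays of the series. The other 6 arrays come from Gdap1-null fibroblasts on the same days and served here to estimate the spread and to test where the wild-type change differed. Fibroblasts of all groups were grown in DMEM with 10% serum, and day 4 cells had received Oct4 (gene symbol Pou5f1), Sox2, Klf4 and cMyc (Myc). The treatment label is shared by all arrays and speaks of overnight transduction, with the factors or as a mock, followed by further growth. Whether day 0 cells were mock-transduced is not stated. Strain, embryo age, vector and batch are not named in the labels, and nothing there says that arrays of a group came from separate cultures or animals, so p-values measure only the spread between these samples, which may be technical. Reprogramming, transduction and time in culture cannot be told apart in this comparison.

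Fibroblasts are connective-tissue cells that make collagen-rich matrix and, when grown on stiff plastic, assemble contractile bundles of actin. Much of that contractile programme is transcribed by serum response factor (SRF) and its actin-sensing coactivators, and related mechanical signals act through YAP and TEAD. In reprogramming, Klf4 and Myc are known to act early on genes that keep fibroblasts mesenchymal, epithelial genes are known to be activated before the pluripotency network, and the cells' response to viral vectors can include interferon-induced genes.

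Values are log2 probe-set levels, so a difference of 1 is a 2-fold difference, and a gene is represented by its brightest probe set. A gene was said to rise or fall where the Benjamini-Hochberg adjusted p of limma's moderated test was under 0.05 over 22180 genes. By that rule 5072 genes (22.9%) changed, 2469 higher (11.1%) and 2603 lower (11.7%), of which 421 (1.9%) and 358 (1.61%) changed at least 2-fold. With each array centred on its median the split was 1979 higher and 3196 lower, that is 38.2% higher in place of 48.7%. The median change over all genes was -0.008. This value and the shares of 11.1% higher and 11.7% lower are those against which each list below can be read. A list count near these shares is no result about its members. The lists were chosen with earlier results of these data known, so counts away from these shares are a description too. All day 4 arrays lay above all day 0 arrays in 3851 genes (17.4%) and below them in 4203 (18.9%). Of the called genes 98.5% of the higher and 99.1% of the lower had no overlap, so lack of overlap adds little to a call.

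Day 4 array 1 stood apart from its group. Its mean Pearson correlation across genes with the other day 4 arrays was 0.987, against 0.991 for arrays 2 and 3 and 0.997 for each day 0 array. In array 1, 266 genes (1.2%) lay more than 1 log2 unit above both other day 4 arrays and 43 (0.194%) lay as far below both, whereas arrays 2 and 3 had between 2 and 6 genes in either position. The median SD of a gene was 0.09 over the day 0 arrays, 0.13 over the day 4 arrays and 0.08 over day 4 arrays 2 and 3. When array 1 was left out, 2644 genes were higher (11.9%) and 2463 lower (11.1%), and 2177 of the 2469 genes higher with it and 2144 of the 2603 lower with it were still called. Of the genes that changed at least 2-fold, 416 of 421 higher and 356 of 358 lower kept their call. In what follows the day 0 and day 4 values are given in the order of the array numbers, and counts of list members higher or lower, other than those over promoters, are also given without day 4 array 1 where they differ.

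Of the transduced factors, Klf4, which represses many fibroblast genes and binds pluripotency enhancers, had levels of 7.18, 7.31 and 7.15 on day 0 and 10.18, 10.04 and 10.23 on day 4. All day 4 arrays lay above all day 0 arrays, and the rise was 2.94 ± 0.09 (SE, n = 3 per group, 7.65-fold, adjusted p = 9.02e-10). Myc, a growth regulator, had levels of 8.51, 8.37 and 8.55 on day 0 and 7.44, 7.61 and 7.33 on day 4 and fell (-1.02, adjusted p = 3.06e-06). Sox2 had levels of 4.07, 4.15 and 4.3 on day 0 and 4.31, 4.4 and 4.37 on day 4. Pou5f1 had levels of 5.22, 5.21 and 5.34 on day 0 and 5.37, 5.29 and 5.4 on day 4. Neither passed (adjusted p = 0.338 and 0.516). Whether these probe sets read the transduced sequences is not given in the sources used here. Among 14 measured genes of the Kruppel-like family, to which Klf4 belongs, 5 rose and 4 fell. Besides Klf4, the rises included Klf3 (0.83), Klf9 (0.74) and Klf10 (0.79), and the falls included Klf6 (-0.73), Klf5 (-0.76) and Klf2 (-0.82).

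The contractile programme fell almost in full: of 35 measured genes, 34 were lower and none was higher, with a median change of -1.23 (33 lower and -1.12 without day 4 array 1). In bulk RNA, fewer cells of a type and less RNA per cell cannot be told apart. All 15 genes of smooth muscle filaments fell, with a median of -1.99 (14 and -1.62 without day 4 array 1). Cnn1, calponin of smooth muscle thin filaments, had levels of 11, 11.02 and 11.04 on day 0 and 5.98, 8.08 and 7.05 on day 4. Myh11, the smooth muscle myosin heavy chain, had levels of 8.14, 8.07 and 8.12 on day 0 and 5.48, 5.99 and 5.65 on day 4 and changed by -2.41 ± 0.18 (SE, n = 3 per group, 5.3-fold, adjusted p = 1.56e-06). Acta2, smooth muscle alpha-actin and a mark of myofibroblasts, had levels of 12.73, 12.75 and 12.74 on day 0 and 11.22, 11.82 and 11.35 on day 4. Tagln, an actin-binding protein, had levels of 11.07, 11.19 and 10.94 on day 0 and 7.67, 9.11 and 8.45 on day 4. In these 4 genes every day 4 array lay below every day 0 array, array 1 was the lowest of the day 4 arrays and array 2 the highest. Tpm2, a tropomyosin, had the smallest p of the group (-2.36, adjusted p = 8.96e-08). Mylk, the myosin light chain kinase, was the member that lost its call without array 1 (-0.74, adjusted p = 0.0482; without it -0.52, adjusted p = 0.164). All 16 genes of the general actin cytoskeleton fell as well, from Actb, cytoplasmic beta-actin (-0.4), to Fhl2, a LIM-domain cofactor (-1.9), with the smallest p in Pdlim7 (-1.44), Csrp1 (-1.01) and Filip1l (-1.49).

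SRF itself was lower. Srf had levels of 8.7, 8.69 and 8.8 on day 0 and 7.78, 8.02 and 7.87 on day 4 and a change of -0.84 ± 0.08 (SE, n = 3 per group, 1.79-fold, adjusted p = 1.33e-05). Its coactivator gene Myocd, which encodes myocardin, had levels of 5.57, 5.51 and 5.3 on day 0 and 4.37, 4.59 and 4.48 on day 4. Mrtfa, an actin-sensing coactivator, had levels of 8.31, 8.46 and 8.31 on day 0 and 7.05, 7.5 and 7.23 on day 4. Both fell (-0.98 and -1.1), while Mrtfb did not pass (-0.15, adjusted p = 0.193). SRF binds the CArG box, CC followed by a run of A or T and then GG, searched on both strands by its full consensus. Of the 30 contractile genes with an entry in the promoter table from RefSeq (GRCm38.p6, 250 bases before to 50 after a start), 8 held a CArG box (26.7%), against 425 of all 27025 promoters (1.57%). All 8 (Myl9, Acta1, Actg1, Vcl, Cnn2, Fhl1, Fhl2 and Srf) fell. Because 29 of these 30 genes fell, this does not tie the box to the fall. The list was made of contractile and SRF genes, so its share with the box is no independent result. The same holds for the motif shares of the cholesterol, ATF4 and interferon lists below, each made of genes of its pathway. Matches are a description of the letters in this window, not a measurement of binding. The stretches around the CArG box of Fhl1 (chrX:56779541-56779630, plus strand) and Cnn2, a calponin of non-muscle cells (chr10:79988504-79988593, plus strand), are shown because these members with the box had the smallest p. Capitals mark the box, which ended 92 and 46 bases before the start.
Fhl1: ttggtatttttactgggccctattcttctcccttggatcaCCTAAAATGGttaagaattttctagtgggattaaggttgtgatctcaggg
Cnn2: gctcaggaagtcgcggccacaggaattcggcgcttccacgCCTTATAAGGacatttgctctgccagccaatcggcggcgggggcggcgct
Fhl1 had levels of 9.15, 9.07 and 9.22 on day 0 and 7.01, 7.51 and 7.5 on day 4. Cnn2 had levels of 11.26, 11.42 and 11.3 on day 0 and 9.68, 10.25 and 9.83 on day 4. All day 4 arrays lay below all day 0 arrays in both, with changes of -1.81 ± 0.15 and -1.41 ± 0.14 (SE, n = 3 per group).

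**Figure D1:**
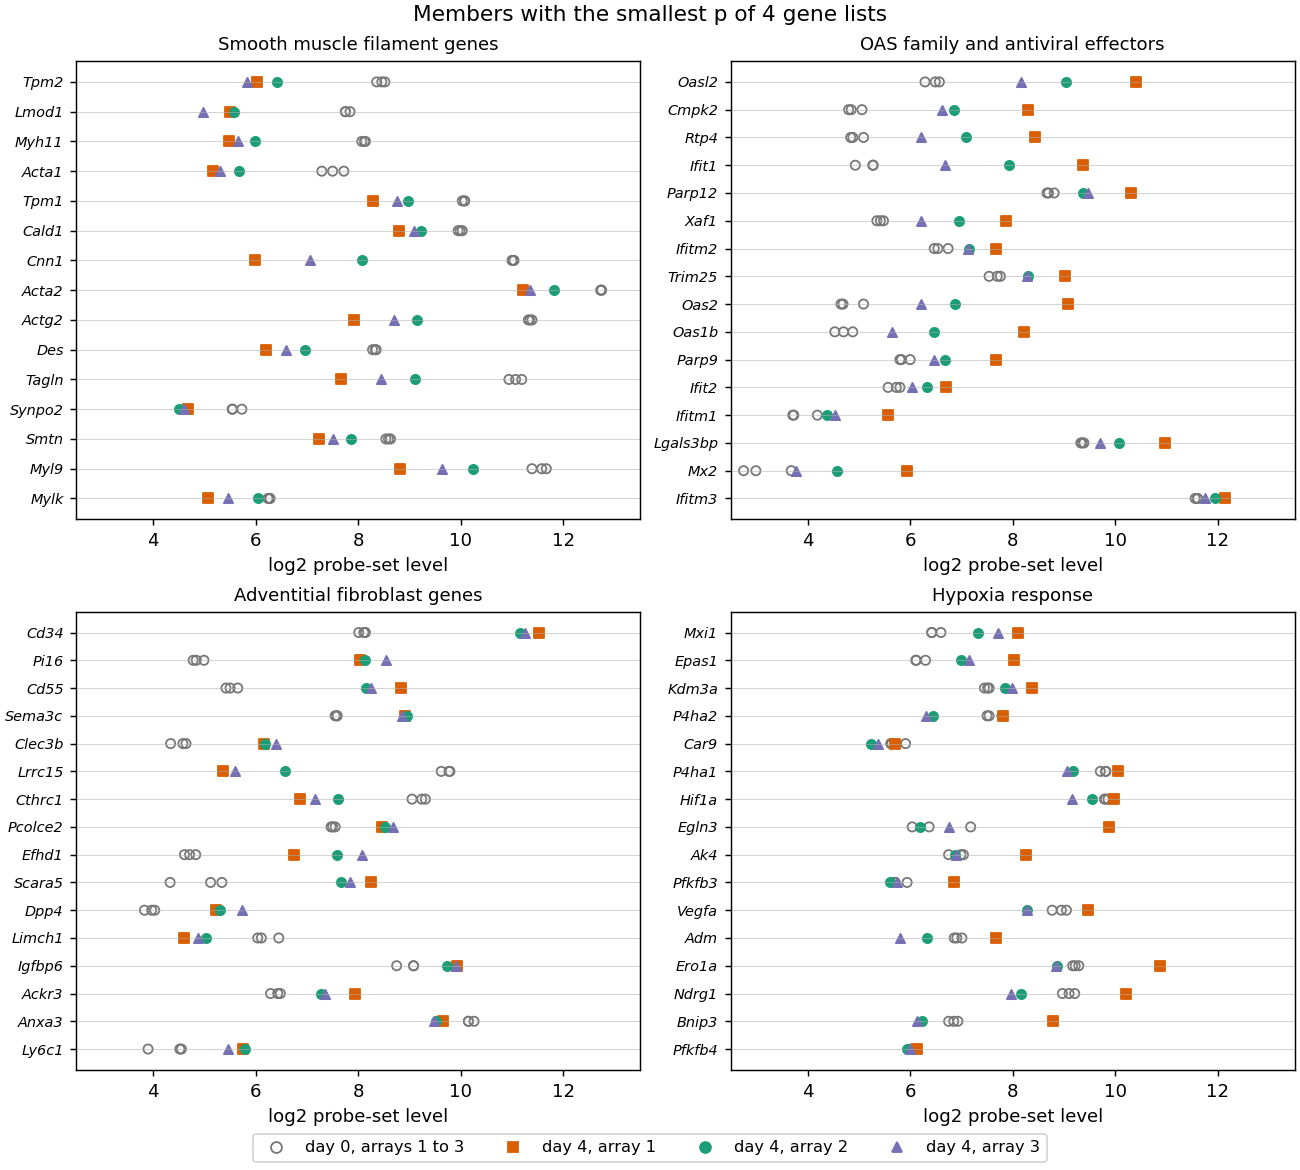
Log2 probe-set levels (x axis) in each wild-type array for members with the smallest p among smooth muscle filament genes, OAS family and antiviral effectors, adventitial genes and hypoxia genes, with open circles for the 3 day 0 arrays and filled markers for day 4 arrays 1, 2 and 3. Smooth muscle filament genes lie lower in all day 4 arrays, the OAS and antiviral genes shown are highest in array 1, and Cd34 is high in all 3 day 4 arrays. Of the hypoxia genes, Mxi1, Epas1 and Kdm3a are above day 0 in all 3 day 4 arrays, while Ndrg1, which has a larger p, is above day 0 in array 1 and below it in arrays 2 and 3.

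Targets of YAP and TEAD, the transcription factors that respond to tension and cell spreading, were lower in 11 of 14 cases with none higher, and these were 11 also without array 1. Ankrd1, a titin-associated repeat protein and a standard YAP readout, had levels of 7.96, 8.16 and 8.27 on day 0 and 4.47, 4.86 and 4.83 on day 4, so that the groups lay 3.10 log2 units apart at their nearest arrays. Ccn2 (connective tissue growth factor) had levels of 10.49, 10.76 and 10.49 on day 0 and 7.34, 8.41 and 7.96 on day 4. Ccn1 had levels of 11.07, 11.09 and 10.88 on day 0 and 9.45, 9.74 and 9.45 on day 4. Their changes were -2.68 ± 0.21 (SE, n = 3 per group, 6.39-fold, adjusted p = 2.52e-06) and -1.47 ± 0.09 (SE, n = 3 per group, 2.77-fold, adjusted p = 5.24e-07). Of the 8 factors and kinases of the pathway, Wwtr1, which encodes TAZ, rose (0.47) and Tead1 (-0.44), Tead3 (-0.54), Lats1 (-0.42) and Lats2 (-0.45) fell, whereas Yap1 did not pass (-0.13, adjusted p = 0.236). Without Gdap1-null day 4 array 2, which enters the estimate of the spread, 2 genes of the list were higher.

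In the TGF-beta pathway, which drives matrix production and contractility in fibroblasts, 8 of 10 ligands and latency proteins fell and 2 rose (7 and 2 without day 4 array 1). Inhba, a subunit of activin A, had levels of 9.05, 9.15 and 9.18 on day 0 and 6.62, 7.0 and 6.32 on day 4. Tgfb1 had levels of 8.6, 9.25 and 8.77 on day 0 and 7.82, 7.76 and 7.39 on day 4. Tgfb3 had levels of 11.14, 11.11 and 11.07 on day 0 and 9.17, 9.98 and 9.61 on day 4. Both fell (-1.22 and -1.52). Tgfb2, in contrast, had levels of 7.46, 7.43 and 7.46 on day 0 and 8.13, 8.02 and 8.11 on day 4 and rose (0.64, adjusted p = 0.000192). Ltbp4, a latency protein, also rose (1.28) where its paralogs Ltbp1 (-1.1) and Ltbp2 (-2.22) fell. Of the 8 receptors and Smads 2 rose and 1 fell (1 and 2 without day 4 array 1), with Tgfbr2 at 0.53 and Smad2 at -0.53. The call of Tgfbr3 (0.42, adjusted p = 0.0193) was lost without day 0 array 1 or 2 (adjusted p = 0.06 and 0.0609) or day 4 array 1 or 2 (0.0639 and 0.0672). Of 9 targets and feedback genes 8 fell (7 without day 4 array 1), among them the inhibitory Smads Smad6 (-0.77) and Smad7 (-1.02) and the feedback genes Skil (-0.75) and Ldlrad4 (-1.01). Over the pathway 17 of 27 genes were lower and 5 higher, and 16 and 4 without day 4 array 1.

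The widest separation between days, measured as the gap between the nearest arrays of the groups, was used to pick 15 rises and 15 falls, so their lack of overlap is no result. Ceacam1, an adhesion molecule of epithelial and blood vessel cells, had levels of 4.35, 4.25 and 4.38 on day 0 and 9.21, 9.19 and 9.66 on day 4 and the widest gap of all, 4.81. Akr1c18, which inactivates progesterone, had levels of 4.37, 4.15 and 4.21 on day 0 and 8.95, 8.89 and 8.89 on day 4, with an SD of 0.04 over the day 4 arrays. Tek, the receptor of angiopoietins, had levels of 4.74, 4.86 and 4.51 on day 0 and 8.83, 8.52 and 8.98 on day 4. Sostdc1, a secreted BMP and Wnt antagonist, had levels of 5.84, 4.92 and 5.23 on day 0 and 10.18, 9.41 and 9.54 on day 4. The changes of these 4 genes without array 1 were 5.1, 4.65, 4.05 and 4.14, against 5.03, 4.67, 4.08 and 4.38 with it. In Sostdc1 array 1 lay 0.64 above the higher of the other day 4 arrays. Slurp1, a secreted protein of keratinocytes, had levels of 4.45, 4.44 and 4.05 on day 0 and 8.12, 7.89 and 8.35 on day 4. Vsnl1, a neuronal calcium sensor, had levels of 4.9, 4.8 and 4.45 on day 0 and 9.0, 8.14 and 9.45 on day 4. Crym, which binds thyroid hormone, had levels of 5.54, 5.57 and 5.06 on day 0 and 9.78, 8.81 and 9.1 on day 4.

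The chloride channel gene Ano1 had levels of 4.98, 5.07 and 5.16 on day 0 and 8.39, 8.19 and 9.06 on day 4. The matrix protein gene Sbspon had levels of 5.76, 6.06 and 5.89 on day 0 and 9.93, 9.02 and 9.76 on day 4. Aldh3a1, an aldehyde dehydrogenase of cornea and stomach, had levels of 4.14, 4.04 and 4.57 on day 0 and 9.37, 7.49 and 8.39 on day 4. Necab1, a neuronal calcium-binding protein, had levels of 4.08, 4.49 and 4.56 on day 0 and 7.97, 7.34 and 8.51 on day 4. Lbp, which binds bacterial lipopolysaccharide, had levels of 6.65, 6.6 and 6.56 on day 0 and 11.53, 9.53 and 9.72 on day 4, so that array 1 exceeded the other day 4 arrays by 1.80 while all 3 lay above day 0. Apod, a lipid carrier that rises in resting fibroblasts, had levels of 7.53, 7.25 and 7.32 on day 0 and 10.75, 10.32 and 10.28 on day 4. Pi16 and Cd34 belong to the adventitial genes below.

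Of the falls with the widest gaps, Gjb2 (connexin 26, a gap junction protein) came first, with levels of 9.5, 9.62 and 9.61 on day 0 and 5.74, 6.32 and 5.35 on day 4 and a change of -3.77 ± 0.22 (SE, n = 3 per group, 13.7-fold, adjusted p = 3.16e-07). Lrrc15, a marker of TGF-beta-activated fibroblasts, had levels of 9.62, 9.79 and 9.77 on day 0 and 5.37, 6.58 and 5.59 on day 4. Ptprn, a protein of secretory granules, had levels of 9.15, 9.4 and 9.33 on day 0 and 6.38, 6.22 and 5.51 on day 4. Ppbp, a chemokine of platelets, had levels of 8.97, 8.96 and 8.92 on day 0 and 5.98, 6.24 and 5.5 on day 4. Mcam, an adhesion molecule of smooth muscle and endothelium, had levels of 9.63, 9.73 and 9.4 on day 0 and 6.58, 7.0 and 6.9 on day 4. Unc5b, a netrin receptor, had levels of 9.53, 9.63 and 9.7 on day 0 and 7.25, 7.37 and 6.62 on day 4. The remaining falls of this group, Trav9d-3, Map3k7cl, Fhl5, Crispld2, Actg2, Lmod1 and Coch, lay between -3.07 and -2.44; Actg2 and Lmod1 are contractile genes, an enteric actin and a nucleator of actin filaments. In Fhl5 the day 4 levels (3.4, 3.76 and 3.31) were near or under 3.75, the level that marks the lowest 25% of genes, so the size of its fall has a floor.

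**Figure D2:**
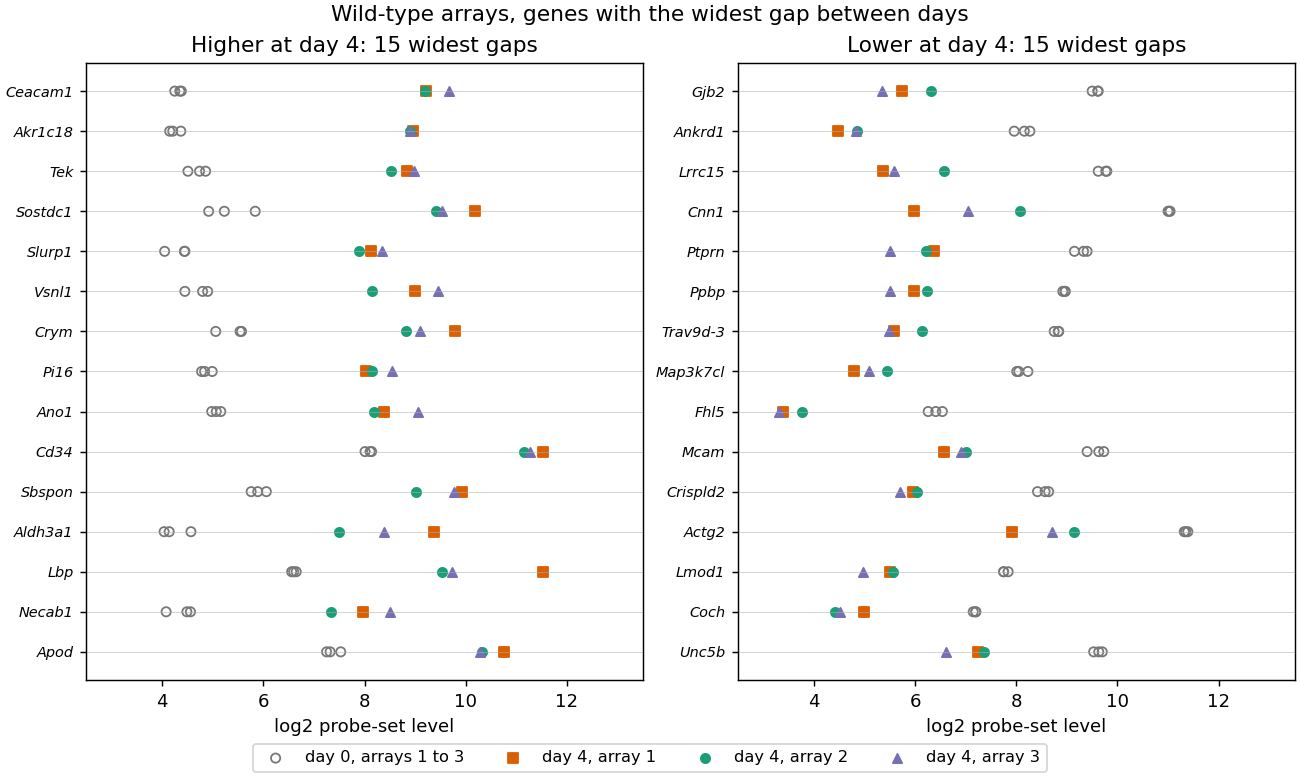
Log2 probe-set levels (x axis) of the 15 rises (left) and 15 falls (right) with the widest gap between days, with open circles for day 0 arrays and filled markers for day 4 arrays 1, 2 and 3. Ceacam1 has the widest gap, 4.81, and in Cnn1 the day 4 arrays spread from 5.98 to 8.08 while the day 0 arrays lie at 11.04 or below.

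Mesenchymal regulators fell in part. Of 14 measured transcription factors 7 fell and 2 rose (6 and 3 without day 4 array 1). Snai1, a repressor of E-cadherin, had levels of 7.62, 7.58 and 7.47 on day 0 and 6.28, 6.45 and 6.03 on day 4 (-1.3, adjusted p = 1.23e-05). Meox2, a homeobox gene of mesoderm, went the other way, with levels of 8.05, 8.02 and 7.89 on day 0 and 9.54, 9.41 and 9.74 on day 4 (1.57). Twist2 (-0.97) and Foxc2 (-0.56) fell. Of 9 surface and cytoskeletal markers 6 fell, including Thy1 (-1.03), Cd44, the hyaluronan receptor (-1.02), and Ncam1 (-1.29). Cdh2, N-cadherin, which fell too, had levels of 9.34, 9.58 and 9.53 on day 0 and 7.83, 8.74 and 8.41 on day 4.

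Of 43 epithelial genes 13 were higher and 4 lower, with a median of 0.06 (14 and 4 without array 1). Cdh1, E-cadherin, had levels of 5.37, 5.33 and 5.48 on day 0 and 6.1, 6.18 and 7.06 on day 4 and rose by 1.05 ± 0.19 (SE, n = 3 per group, 2.06-fold, adjusted p = 0.00146), with day 4 array 3 the highest. Cxadr, a tight junction receptor, had levels of 6.74, 6.73 and 6.64 on day 0 and 8.49, 7.98 and 8.41 on day 4. Pkp1, a desmosomal plaque protein, had levels of 4.8, 4.69 and 4.82 on day 0 and 7.64, 6.72 and 7.47 on day 4. Dsp, which encodes desmoplakin, rose by 1.02 ± 0.18 (SE, n = 3 per group). Epcam did not pass, with levels of 3.48, 3.62 and 3.47 on day 0 and 3.78, 3.43 and 3.72 on day 4. Cdh3, P-cadherin, fell, with levels of 9.06, 9.16 and 9.16 on day 0 and 6.25, 7.64 and 6.86 on day 4. Of the keratins, Krt19 rose (1.03) and Krt18 fell (-0.92). The epithelial regulator Elf3 rose (1.21), and Klf5 fell. Among keratinocyte genes 8 of 18 were higher and 1 lower (2 lower without day 0 array 2 or day 4 array 2). Krt14, a basal keratin, had levels of 5.29, 5.48 and 5.21 on day 0 and 6.7, 7.08 and 6.72 on day 4, and Krt16 (1.21), Perp (1.12) and Slurp1 rose with it. The day 0 levels of Krt16 (2.77, 2.77 and 2.67) were under 3.75, the level that marks the lowest 25% of genes. Those of Elf3 (3.66, 3.84 and 3.55) were near or under it, so the sizes of both rises are uncertain. The water channel gene Aqp3 had levels of 4.45, 4.84 and 4.8 on day 0 and 9.44, 6.65 and 7.52 on day 4.

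Of 29 pluripotency genes 6 were higher and 1 lower, with a median of 0.09 (5 and 3, and 0.02, without array 1; 2 lower without Gdap1-null day 4 array 2). Tet1, a DNA demethylase, had levels of 5.94, 5.92 and 5.91 on day 0 and 6.62, 6.54 and 6.73 on day 4. Sall1 had levels of 4.97, 5.34 and 5.23 on day 0 and 6.08, 6.04 and 6.08 on day 4. Both rose (0.7 and 0.89). Fbxo15, a target of Oct4 and Sox2, had levels of 3.32, 3.49 and 3.34 on day 0 and 4.71, 3.92 and 4.25 on day 4 (0.91, adjusted p = 0.00177). Tfcp2l1 (0.52, adjusted p = 0.0422) was 1 of the core calls and did not pass without any 1 of 7 arrays, with adjusted p between 0.0524 and 0.143. Alpl, the alkaline phosphatase used to stain early colonies, rose (0.52, adjusted p = 0.028) but did not pass without day 0 array 1 (0.0679) or 3 (0.105) or day 4 array 3 (0.12). Cd9, a surface tetraspanin, rose (0.44), and Tbx3 fell (-0.54). Nanog had levels of 4.43, 4.76 and 4.59 on day 0 and 4.52, 4.62 and 4.92 on day 4 and did not pass (adjusted p = 0.645).

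Genes of the extracellular matrix changed in both directions. No fibrillar collagen rose and 8 of 11 fell (9 without array 1), with Col5a1 (-0.94), Col5a2 (-1.1) and Col5a3 (-1.01) together; Col1a1, the main chain of type I collagen, had levels of 11.93, 11.97 and 11.96 on day 0 and 11.16, 11.54 and 11.21 on day 4. Of 30 other collagen chains 11 fell, including Col4a1 (-0.89) and Col7a1 (-1.24), and 3 rose, with Col28a1 at 0.92 (13 and 4 without array 1). Small leucine-rich proteoglycans split: Dcn (decorin) had levels of 10.4, 10.2 and 10.3 on day 0 and 12.22, 11.93 and 11.79 on day 4. Lum (lumican) had levels of 7.95, 7.8 and 8.1 on day 0 and 9.56, 9.77 and 9.27 on day 4. Both rose, as did Kera (1.9). Fmod (fibromodulin) fell, with levels of 9.03, 9.09 and 9.02 on day 0 and 7.22, 7.75 and 7.2 on day 4. Efemp1, an elastic fibre protein, had levels of 8.71, 8.69 and 8.83 on day 0 and 10.34, 10.42 and 10.22 on day 4, while the lysyl oxidases Loxl3 (-1.72) and Loxl4 (-0.94) fell. Tnc, the injury-induced tenascin C, had levels of 11.79, 11.69 and 11.77 on day 0 and 10.19, 10.33 and 9.56 on day 4. Acan (aggrecan) had levels of 5.41, 5.44 and 5.36 on day 0 and 3.99, 3.71 and 3.71 on day 4. Both fell, whereas Tnxb (1.01) and the laminin chain gene Lama4 (0.71) rose. Over matrix glycoproteins 12 of 42 were higher and 20 lower, and 16 and 17 without array 1. Eln, which encodes elastin, had levels of 8.43, 8.55 and 8.29 on day 0 and 7.84, 9.62 and 9.36 on day 4. Its change was 0.52 (adjusted p = 0.315) with all arrays and 1.07 (adjusted p = 2.95e-05) without array 1.

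Matrix proteases and their inhibitors were lower in 12 of 29 cases and higher in 2. In the plasmin system, Plaur, the urokinase receptor, had levels of 8.37, 8.49 and 8.59 on day 0 and 6.81, 6.34 and 6.06 on day 4. Plau had levels of 8.09, 8.22 and 8.08 on day 0 and 6.07, 6.74 and 6.61 on day 4. Plat, tissue plasminogen activator, also fell (-1.62). Mmp2, a gelatinase, rose (0.84), with levels of 10.63, 10.71 and 10.65 on day 0 and 11.72, 11.47 and 11.31 on day 4. Adamts6 (-1.4) and Mmp23 (-1.12) fell and Adamts15 rose (1.15).

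The adventitial fibroblast list holds markers of the universal fibroblasts around vessels and also some of activated fibroblasts. Like the other lists, it was chosen with earlier results of these data known, so its counts are a description. Of its 23 measured genes 12 were higher and 4 lower, with a median of 0.88 (13 and 4, and 0.85, without array 1). The day 4 arrays were alike, with list medians of 0.97, 0.87 and 0.93 in arrays 1, 2 and 3. Cd34 had levels of 8.01, 8.14 and 8.11 on day 0 and 11.52, 11.15 and 11.26 on day 4 and rose 9.35-fold. Pi16, a peptidase inhibitor, had levels of 4.78, 4.99 and 4.84 on day 0 and 8.03, 8.14 and 8.55 on day 4. Cd55, which protects cells from complement, had levels of 5.65, 5.5 and 5.42 on day 0 and 8.84, 8.16 and 8.25 on day 4. Sema3c, a secreted semaphorin, rose by 1.34 ± 0.08 (SE, n = 3 per group). Scara5 had levels of 5.34, 5.12 and 4.33 on day 0 and 8.24, 7.66 and 7.84 on day 4. Efhd1 had levels of 4.71, 4.61 and 4.83 on day 0 and 6.74, 7.59 and 8.07 on day 4. The peptidase gene Dpp4 had levels of 3.97, 3.83 and 4.03 on day 0 and 5.23, 5.3 and 5.73 on day 4. These 3 genes rose. The 4 genes that fell were Lrrc15, Cthrc1 (-1.99), Limch1 (-1.36) and Anxa3 (-0.64), of which the first pair mark activated fibroblasts in scars and tumours.

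Genes of other mesenchymal fates gave split counts. Of 29 adipogenic genes 8 were higher and 5 lower (9 and 5 without day 4 array 1). The lower ones numbered 2 without day 0 array 1, 2 without day 0 array 2, 3 without day 0 array 3 and 3 without day 4 array 3. Cebpa, a driver of fat cell differentiation, had levels of 5.5, 5.41 and 5.72 on day 0 and 6.58, 6.99 and 6.82 on day 4. Pparg, its partner, had levels of 6.8, 6.75 and 6.49 on day 0 and 6.23, 6.19 and 6.16 on day 4. Their changes had opposite signs (1.25 and -0.49). Lpl, lipoprotein lipase, had levels of 8.06, 7.69 and 8.01 on day 0 and 9.23, 9.26 and 9.02 on day 4. Among bone, cartilage and tendon regulators 7 of 11 fell and 2 rose (6 and 2 without day 4 array 1): Dlx5 (-1.44) and Sox9 (-0.73) fell, and Sox6 (1.37) and Mkx (0.82) rose. Tnmd, a tendon membrane protein, fell by 2.75 on the log2 scale. With the products of these fates included, 4 of 21 were higher and 8 lower (5 and 7 without day 4 array 1; 2 higher without day 0 array 1).

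Cholesterol synthesis fell along its length. Of 19 enzymes and regulators 18 were lower and none higher, with a median of -0.82 (17 and -0.76 without array 1). Lss, which closes the sterol ring, had levels of 8.69, 8.53 and 8.66 on day 0 and 6.57, 7.32 and 7.12 on day 4. Hsd17b7 had levels of 9.07, 9.08 and 8.95 on day 0 and 7.22, 7.69 and 7.56 on day 4. Array 1 was the lowest of the day 4 arrays in both. Msmo1 (-1.39) and Fdps (-1.23) followed. Efflux went the other way in Abca1, the cholesterol exporter, with levels of 7.31, 7.15 and 7.21 on day 0 and 9.92, 9.49 and 9.71 on day 4 and a rise of 2.49 ± 0.11 (SE, n = 3 per group, 5.6-fold, adjusted p = 4.78e-08). Fatty acid synthesis genes were lower in 6 of 14 cases (5 without array 1), including Acly (-0.69) and Fads2 (-0.55). The sterol regulatory element TCACNCCAC, searched on both strands, was found in 1 of 19 cholesterol gene promoters (5.26%) and in 330 of all 27025 (1.22%). The match was in Hmgcs1, which makes HMG-CoA, and is shown as the only example (chr13:119690174-119690262, plus strand; capitals mark the element, 128 bases before the start).
Hmgcs1: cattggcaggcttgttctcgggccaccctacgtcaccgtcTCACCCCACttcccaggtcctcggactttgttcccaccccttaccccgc
Hmgcs1 had levels of 9.92, 9.95 and 9.99 on day 0 and 8.63, 9.15 and 9.11 on day 4 and changed by -0.99 ± 0.11 (SE, n = 3 per group).

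Targets of ATF4, the factor that raises amino acid synthesis and transport under stress, were lower in 24 of 39 cases and higher in 5 (27 and 4 without array 1). Atf4 itself fell (-0.67), as did Atf5 (-1.2) and Ddit3 (-1.14). Chac1, which degrades glutathione, had levels of 8.36, 8.17 and 8.45 on day 0 and 5.86, 6.37 and 6.16 on day 4. Of the synthesis genes, Mthfd2 of mitochondrial folate metabolism changed by -1.83 and Asns, asparagine synthetase, by -0.88, with levels of 10.16, 10.04 and 10.03 on day 0 and 9.23, 9.21 and 9.15 on day 4; the cytosolic Shmt1 rose (0.98). Of the transporters, Slc7a5 (-1.15) and Slc1a4 (-1.21) fell and the glutamine transporter gene Slc1a5 rose (0.6). Slc7a11, the cystine transporter, had levels of 6.85, 6.72 and 6.76 on day 0 and 7.07, 5.45 and 5.08 on day 4, low in day 4 arrays 2 and 3. Its change was -0.91 (adjusted p = 0.109) with array 1 and -1.51 (adjusted p = 7.01e-05) without it. Cytosolic aminoacyl-tRNA synthetases, which load amino acids onto tRNA, fell in 12 of 18 cases with none higher; Cars had levels of 8.78, 8.72 and 8.61 on day 0 and 7.67, 7.94 and 7.76 on day 4. Genes of protein folding in the endoplasmic reticulum were lower in 12 of 22 cases with 1 higher, Ero1b (0.71), and the falls included Herpud1 (-0.45) and Manf (-0.5).

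The amino acid response element TGATGNAA, searched on both strands, was in 9 of 32 promoters of the ATF4 list (28.1%), 5 of them among the 24 that changed, against 1096 of all 27025 (4.06%). Chac1 (chr2:119351009-119351096, plus strand) and Asns (chr6:7693210-7693272, minus strand) had the smallest p among those that hold it; capitals mark the element, which in Chac1 lies on the opposite strand, 185 bases before the start, and in Asns 15 bases before it.
Chac1: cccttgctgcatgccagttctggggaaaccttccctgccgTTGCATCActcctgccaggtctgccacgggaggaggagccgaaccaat
Asns: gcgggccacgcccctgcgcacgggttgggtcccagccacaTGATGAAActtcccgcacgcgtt
Both had day 4 levels below all day 0 levels.

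Steroid and carbonyl metabolism held a few of the widest rises and many genes that did not pass: 9 of 40 were higher and 5 lower (8 and 6 without array 1). Beside Akr1c18 and Aldh3a1, the related Akr1c14 had levels of 3.88, 3.78 and 4.05 on day 0 and 5.12, 5.25 and 5.07 on day 4. The carboxylesterase gene Ces1f had levels of 2.97, 3.31 and 3.47 on day 0 and 6.16, 5.1 and 6.18 on day 4. Ces2g had levels of 4.28, 4.22 and 3.91 on day 0 and 6.28, 5.78 and 5.64 on day 4. Cyp2f2, a cytochrome of lung, had levels of 4.85, 5.12 and 4.66 on day 0 and 8.31, 6.2 and 6.28 on day 4, with array 1 more than 2 log2 units above the others; its change was 2.05 and without array 1 1.36. Aldh2 (0.68) and Aldh6a1 (0.9) rose, and Aldh1a2, which makes retinoic acid, fell (-0.8). In the prostaglandin pathway Ptgs2, the inducible cyclooxygenase, had levels of 9.72, 9.75 and 9.82 on day 0 and 9.07, 7.51 and 7.5 on day 4. Hpgd, which degrades prostaglandins, had levels of 5.6, 5.55 and 5.7 on day 0 and 6.81, 7.11 and 7.34 on day 4. Ptgs2 fell and Hpgd rose, and Akr1c18 also belongs to this list. Glutathione transferases were higher in 10 of 19 cases and lower in 2 (8 and 2 without array 1), with Gstk1 (1.29), Gstt3 (1.3) and Mgst1 (1.36). Of 14 other genes of the NRF2 list 3 fell, Nqo1 (-1.18), Txnrd1 (-0.58) and Srxn1 (-0.76), and 1 rose (5 and none without array 1). The 1 that rose was Nfe2l2, which encodes NRF2 itself. Its change was at the threshold (0.29, adjusted p = 0.05) and did not pass without any 1 of 10 arrays (0.0528 to 0.164). Over both, 11 of 33 were higher and 5 lower (8 and 7 without day 4 array 1), and 7 were higher without day 0 array 1 or without day 0 array 2. Lysosomal genes were higher in 6 of 28 cases and lower in 2 (4 and 3 without day 4 array 1). There were 3 higher without day 0 array 2. None was lower without day 0 array 1 or day 4 array 3, and 1 was lower without day 0 array 2, day 0 array 3, day 4 array 2 or any 1 Gdap1-null day 0 array. Ctsf, a cysteine protease, rose, with levels of 6.66, 6.71 and 6.78 on day 0 and 8.36, 7.96 and 8.19 on day 4.

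Mitosis genes were lower in 24 of 44 cases and higher in 2 (21 and 2 without array 1; 1 higher without any 1 day 0 array or day 4 array 3). Prc1, which bundles spindle microtubules, had levels of 9.41, 9.49 and 9.45 on day 0 and 8.51, 8.62 and 8.73 on day 4. Foxm1, the factor that transcribes many of these genes, had levels of 8.54, 8.43 and 8.49 on day 0 and 7.6, 7.79 and 7.99 on day 4. List medians were -0.61, -0.36 and -0.18 in day 4 arrays 1, 2 and 3. Cdc25b, a mitotic phosphatase, rose (0.73). Of 51 DNA replication genes 15 were lower and 5 higher (9 and 7 without day 4 array 1); the lower ones numbered 7 and 8 without day 0 array 1 or 3, and 9 without day 4 array 2. Ccnd1, cyclin D1, had levels of 9.92, 9.77 and 9.82 on day 0 and 10.58, 10.72 and 10.69 on day 4. Rb1, the retinoblastoma protein, had levels of 7.7, 7.58 and 7.78 on day 0 and 9.25, 8.78 and 9.23 on day 4. Both rose. Cdkn1c, which encodes the CDK inhibitor p57, had levels of 6.48, 6.65 and 6.36 on day 0 and 7.95, 8.5 and 8.26 on day 4 and rose by 1.74 ± 0.14 (SE, n = 3 per group, 3.35-fold, adjusted p = 2.03e-06), while Cdkn2b fell (-0.72) and Cdkn1a did not pass (-0.01, adjusted p = 0.92). Of 18 p53 targets 9 fell (8 without array 1), including Plk3 (-1.37) and Plk2 (-1.45), and 5 rose. In the MYC network 3 of 11 genes were higher and 4 lower. Mxi1 and Mxd4, which oppose MYC, rose (1.24 and 0.56), while Mxd3 (-0.43) and Myc (-1.02) fell. Ribosome biogenesis genes were split, 6 higher and 7 lower of 32 (7 and 6 without day 4 array 1, and 4 lower without day 0 array 2 or 3), with Dkc1 at 0.75 and Bysl at -0.61.

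The 12 genes in which day 4 array 1 lay farthest above the other day 4 arrays, and the 12 farthest below, were chosen on these values, which are given as a description. Of those above, Lcn2, an iron-scavenging defence protein, had levels of 5.53, 5.99 and 5.44 on day 0 and 11.22, 5.43 and 5.32 on day 4, so that arrays 2 and 3 lay just below the lowest day 0 array. Saa3, serum amyloid A of mesenchymal cells, had levels of 5.12, 5.16 and 5.34 on day 0 and 12.76, 7.48 and 6.88 on day 4. Steap4, a metalloreductase, had levels of 4.45, 4.31 and 4.45 on day 0 and 10.35, 6.31 and 5.83 on day 4. In these 2 genes arrays 2 and 3 lay above day 0 as well. Saa3 (adjusted p = 0.0188) did not pass without day 0 array 1 (0.0551) or 2 (0.0569). The chemokine gene Ccl5 had levels of 5.08, 5.25 and 4.99 on day 0 and 10.08, 5.25 and 5.31 on day 4. Ccl3 had levels of 6.3, 6.67 and 6.44 on day 0 and 10.83, 7.23 and 7.12 on day 4. Acod1, which makes itaconate in activated macrophages, had levels of 3.89, 3.87 and 3.78 on day 0 and 8.41, 3.51 and 3.65 on day 4. Hp (haptoglobin) had levels of 5.73, 5.46 and 5.48 on day 0 and 10.28, 5.08 and 5.37 on day 4. Cfb, a complement protease, had levels of 5.28, 5.07 and 5.21 on day 0 and 9.73, 5.26 and 5.3 on day 4. Mmp3, a stromelysin, had levels of 5.61, 4.94 and 5.21 on day 0 and 10.36, 5.75 and 6.02 on day 4. Cp, Slc13a3 and Chil1 had array 1 at least 3.42 above both others. Of the genes in which array 1 lay farthest below, Chrdl1, a BMP antagonist, had levels of 4.24, 4.46 and 4.4 on day 0 and 4.93, 7.4 and 7.3 on day 4. Osr2, a mesenchymal transcription factor, had levels of 7.53, 7.5 and 7.59 on day 0 and 7.88, 9.37 and 9.38 on day 4. Mest, an imprinted gene, had levels of 9.93, 9.82 and 9.98 on day 0 and 8.57, 10.29 and 10.08 on day 4. The hyaluronan-degrading Cemip had levels of 8.44, 8.38 and 8.59 on day 0 and 6.58, 8.55 and 8.2 on day 4. C1qtnf3, a secreted C1q-like protein, had levels of 9.93, 10.1 and 9.98 on day 0 and 6.03, 8.78 and 7.44 on day 4. Itga8, an integrin chain of mesenchymal cells, had levels of 7.32, 7.12 and 7.3 on day 0 and 5.43, 7.02 and 6.85 on day 4. Ndnf had levels of 7.84, 7.7 and 7.95 on day 0 and 6.14, 8.11 and 7.7 on day 4. Nrk had levels of 5.76, 6.15 and 6.14 on day 0 and 6.49, 8.16 and 7.92 on day 4. The change of Itga8 (-0.82, adjusted p = 0.0844) was a call without day 4 array 2 (-1.11, adjusted p = 0.023), as were that of Cemip (-1.08, adjusted p = 0.0326) and Mmp3 (2.93, adjusted p = 0.0282). Ccl3 was a call without any 1 day 4 array (adjusted p between 0.00145 and 0.0249).

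**Figure D3:**
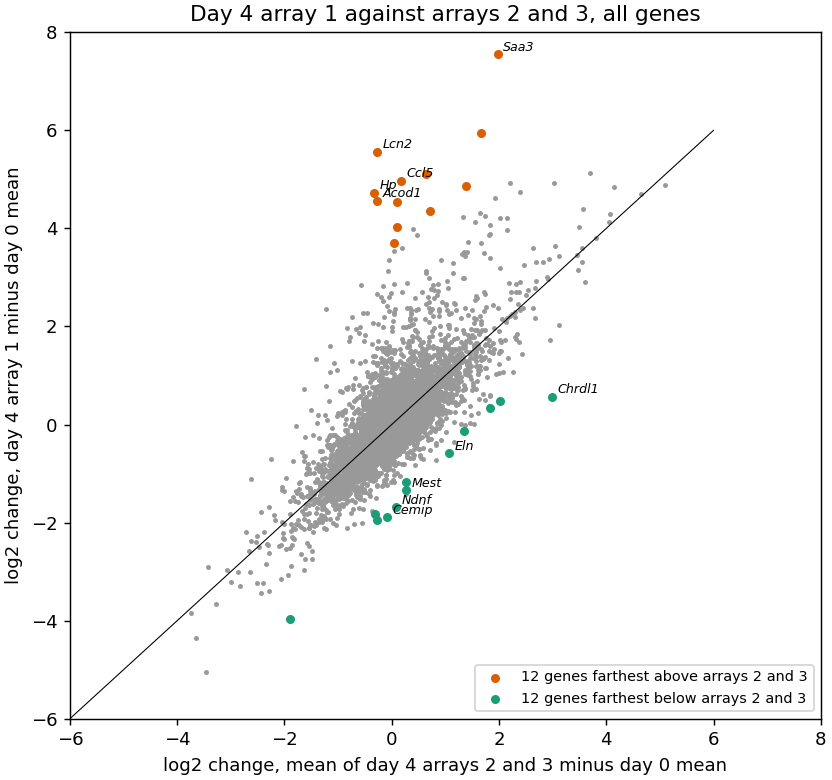
Each point is 1 of 22180 genes, with the log2 change from the day 0 mean in day 4 arrays 2 and 3 (their mean, x axis) and in day 4 array 1 (y axis); the line marks equality. The 12 genes named farthest above the line include Lcn2 and Saa3, the 12 farthest below include Chrdl1, and in all 266 genes lie more than 1 log2 unit above both other arrays against 43 below.

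Interferon response genes were higher to unequal levels in the day 4 arrays: 37 of 78 were higher and 1 lower, with a median of 0.76 (32 and 3, and 0.36, without array 1). List medians were 1.49, 0.48 and 0.26 in day 4 arrays 1, 2 and 3, and in 37 of the 78 array 1 lay more than 1 log2 unit above both others. Without day 0 array 1, 2 or 3 there were 24, 21 and 22 higher. By role, 4 of 6 genes of the OAS family rose, 19 of 27 antiviral effectors, 4 of 10 GTPases, 5 of 11 genes of antigen presentation and 4 of 12 sensors and adaptors. Without day 4 array 1 these were 4, 15, 3, 4 and 5. Of 12 interferons, receptors and factors Irf7 alone rose (1.86, adjusted p = 0.0158; 0.0536 without day 0 array 3). Oasl2, an OAS-like antiviral protein, had levels of 6.29, 6.57 and 6.49 on day 0 and 10.41, 9.05 and 8.16 on day 4. Cmpk2, a mitochondrial nucleotide kinase, had levels of 4.85, 5.06 and 4.8 on day 0 and 8.3, 6.85 and 6.63 on day 4. Rtp4 had levels of 4.88, 4.84 and 5.09 on day 0 and 8.44, 7.08 and 6.22 on day 4. Mavs, the adaptor of RNA sensors, stood out from these by its even rise, with levels of 8.7, 8.71 and 8.74 on day 0 and 9.38, 9.31 and 9.57 on day 4. Its change was 0.7 ± 0.09 (SE, n = 3 per group, 1.62-fold, adjusted p = 0.000102). Sensor gene Ifih1 (MDA5) had levels of 5.83, 5.77 and 6.05 on day 0 and 8.2, 6.96 and 6.57 on day 4. The GTPase gene Gbp7 had levels of 5.6, 5.23 and 5.29 on day 0 and 8.37, 6.88 and 6.57 on day 4. H2-T23, a non-classical class I molecule, had levels of 5.06, 4.73 and 5.37 on day 0 and 7.77, 6.04 and 5.78 on day 4 (adjusted p = 0.0176; 0.0764 without day 0 array 2). The gene that fell, Jak1 (-0.28, adjusted p = 0.0316), did not pass without day 0 array 2 (0.0997), day 0 array 3 (0.113) or day 4 array 3 (0.129). Sting1 had levels of 9.57, 9.53 and 9.43 on day 0 and 9.55, 8.95 and 8.6 on day 4 and was called lower without array 1 alone (-0.73, adjusted p = 0.000355).

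The core of the interferon-stimulated response element, GAAA repeated with 2 bases between, on either strand, was in 23 of 59 interferon gene promoters (39.0%), 13 of them among 28 that changed, against 943 of all 27025 promoters (3.49%). Ifit1, which binds foreign RNA (chr19:34640745-34640853, plus strand), held 2 matches on the opposite strand, the nearer 75 bases before the start, and Ifitm2, which blocks viral entry (chr7:140955962-140956047, minus strand), held 1, at 36 bases. They are shown because they had the smallest p among the genes with a match; capitals mark the matches.
Ifit1: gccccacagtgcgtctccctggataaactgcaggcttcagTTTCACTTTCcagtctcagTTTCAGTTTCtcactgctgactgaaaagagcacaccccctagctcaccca
Ifitm2: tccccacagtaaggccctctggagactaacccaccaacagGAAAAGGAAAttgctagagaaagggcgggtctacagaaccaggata
Ifit1 had levels of 4.93, 5.27 and 5.28 on day 0 and 9.38, 7.93 and 6.68 on day 4 and rose by 2.84 ± 0.49 (SE, n = 3 per group, 7.16-fold, adjusted p = 0.000884). Ifitm2 had levels of 6.47, 6.54 and 6.74 on day 0 and 7.67, 7.15 and 7.12 on day 4 and rose by 0.73 ± 0.14 (SE, n = 3 per group, 1.66-fold, adjusted p = 0.00165). Array 1 was the highest of the day 4 arrays in both.

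Inflammatory factors were 8 higher and 5 lower of 49 with all arrays, and 8 and 15 without day 4 array 1; 5 were higher without day 0 array 1 and 13 without day 4 array 3. List medians were 1.47 in array 1, -0.06 in array 2 and -0.18 in array 3, and array 1 lay more than 1 log2 unit above both others in 30 of the 49. The chemokine gene Ccl2 had levels of 10.31, 10.56 and 10.27 on day 0 and 12.09, 9.75 and 9.4 on day 4. Cxcl5 had levels of 8.43, 8.45 and 8.38 on day 0 and 10.77, 7.53 and 6.87 on day 4. Cxcl1 had levels of 5.13, 5.24 and 5.28 on day 0 and 8.07, 5.0 and 4.28 on day 4. All 3 lay above day 0 in array 1 and below it in arrays 2 and 3. Il6, an inducer of acute-phase proteins, had levels of 4.91, 4.73 and 4.94 on day 0 and 6.64, 4.13 and 4.04 on day 4. Tnf had levels of 5.55, 5.63 and 5.62 on day 0 and 7.31, 5.28 and 4.9 on day 4. These 5 did not pass with all arrays (adjusted p between 0.631 and 0.985), and without array 1 all were lower, from -0.51 to -1.22. Of the calls that did not hang on array 1, Il15 rose (0.78), Cx3cl1 fell (-1.31), and Ccl8, a monocyte chemokine, had levels of 4.46, 4.43 and 4.52 on day 0 and 7.4, 5.87 and 5.13 on day 4. Complement genes were higher in 8 of 16 cases and lower in 3 (7 and 3 without array 1). Serping1, the C1 inhibitor, had levels of 8.49, 8.42 and 8.57 on day 0 and 11.04, 10.2 and 9.91 on day 4. C4b had levels of 4.07, 3.82 and 4.33 on day 0 and 6.74, 5.87 and 5.75 on day 4. C1s1 had levels of 3.97, 3.83 and 3.74 on day 0 and 7.73, 5.72 and 5.65 on day 4. All day 4 arrays lay above day 0 in these 3. Cd59a, which blocks the membrane attack complex, fell (-0.87).

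Markers of macrophages and blood moved with array 1 in part. Of 11 measured, Cd68 was higher (0.42) and Csf1r lower (-0.65). Without array 1 there were 1 higher and 2 lower, the added call being the integrin chain gene Itgam (-0.1, adjusted p = 0.782; without it -0.38, adjusted p = 0.0269). With every gene set to a mean of 0 over arrays, the list averaged 0.42 in day 4 array 1, -0.15 and -0.20 in day 4 arrays 2 and 3, and between -0.05 and 0.02 in the day 0 arrays. Adgre1, a macrophage surface receptor, had levels of 6.45, 6.23 and 6.48 on day 0 and 8.44, 6.34 and 5.94 on day 4. Cd14 had levels of 4.8, 4.73 and 4.66 on day 0 and 6.3, 4.56 and 4.52 on day 4. Lyz2 had levels of 9.33, 9.25 and 9.28 on day 0 and 10.44, 9.33 and 9.32 on day 4. Each was more than 1 log2 unit higher in array 1. Ptprc (CD45), which all white blood cells carry, had levels of 4.62, 4.44 and 4.37 on day 0 and 4.58, 4.19 and 4.32 on day 4. Mrc1 was lowest in array 1 (5.92, 5.8 and 5.95 on day 0 and 4.72, 6.22 and 6.11 on day 4). Log2 array levels have no zero. The part of such cells in the array 1 values was not tested.

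The calls lower among hypoxia and glycolysis genes depended on array 1. Of 19 hypoxia genes 3 were higher and none lower with all arrays; without array 1, 3 were higher and 11 lower, and the median went from 0.03 to -0.42. Array medians were 0.88, -0.36 and -0.38. Ndrg1 had levels of 9.1, 9.21 and 8.97 on day 0 and 10.21, 8.17 and 7.97 on day 4. Bnip3, a mitophagy receptor, had levels of 6.75, 6.85 and 6.93 on day 0 and 8.79, 6.24 and 6.13 on day 4. Adm, adrenomedullin, had levels of 6.91, 7.01 and 6.86 on day 0 and 7.67, 6.33 and 5.8 on day 4. These lay above day 0 in array 1 and below it in arrays 2 and 3. The 3 genes called higher were Mxi1, Epas1 and Kdm3a (0.57). Mxi1 had levels of 6.42, 6.6 and 6.42 on day 0 and 8.11, 7.33 and 7.72 on day 4. Epas1, which encodes HIF-2 alpha, had levels of 6.11, 6.12 and 6.3 on day 0 and 8.03, 7.0 and 7.15 on day 4. Of 18 glycolysis and glucose transport genes 4 were higher and none lower, and without array 1 4 and 10. Slc2a1, the main glucose transporter, had levels of 10.58, 10.54 and 10.59 on day 0 and 10.76, 9.29 and 9.11 on day 4. Its change was -0.85 (adjusted p = 0.0641), and without array 1 -1.37 (adjusted p = 1.22e-06). Slc16a3, a lactate exporter, had levels of 7.52, 7.5 and 7.2 on day 0 and 8.75, 6.19 and 5.8 on day 4. Slc16a1, its paralog, rose, with levels of 8.25, 8.26 and 8.32 on day 0 and 9.92, 9.26 and 9.34 on day 4. Aldoc, an aldolase, rose as well (6.82, 6.25 and 6.64 on day 0 and 8.6, 7.69 and 7.58 on day 4). Of 27 nuclear-encoded subunits of the respiratory chain 4 were higher, including Atp5c1 (0.34) and Sdhd (0.46), and none was lower. Over all genes 11.1% were higher and 11.7% lower. Of 14 genes of mitochondrial fission and fusion, the family of processes in which Gdap1 takes part, 1 fell, Mfn2, a fusion protein (-0.46, adjusted p = 0.00844), and none rose. Without day 4 array 1 or without day 4 array 2, 1 was higher; without array 1 it was the protease gene Oma1 (0.31, adjusted p = 0.0302, against 0.24 and 0.0858 with all arrays).

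Secreted signals changed gene by gene. In the insulin-like growth factor axis Igfbp3, a binding protein, had levels of 9.58, 9.3 and 9.75 on day 0 and 11.2, 11.29 and 10.97 on day 4. Pappa, a protease that frees the ligand, had levels of 8.75, 8.82 and 8.82 on day 0 and 6.66, 7.34 and 6.65 on day 4. In all, 4 of 15 genes were higher and 4 lower (5 and 4 without day 4 array 1). Among BMP ligands Bmp6 rose (1.56) and Gdf6 fell (-1.25). Of the antagonists Sostdc1 rose and Grem1 (gremlin) fell, with levels of 10.15, 10.08 and 10.15 on day 0 and 9.02, 7.98 and 7.01 on day 4; over the pathway 8 of 31 were higher and 11 lower (8 and 10 without day 4 array 1). Among Wnt ligands Wnt2 rose, with levels of 5.05, 4.91 and 4.89 on day 0 and 6.15, 6.32 and 6.87 on day 4, and 7 of 14 fell, including Wnt5a (-0.93) and Wnt2b (-0.85); without day 4 array 1, 2 were higher and 5 lower. Sfrp4, a secreted Wnt binder, had levels of 3.65, 3.91 and 3.66 on day 0 and 6.94, 5.64 and 5.89 on day 4. Dkk3 had levels of 9.08, 9.29 and 9.05 on day 0 and 7.87, 8.25 and 7.82 on day 4. Wnt genes were 7 higher and 13 lower of 40 with all arrays, and 11 and 11 without day 4 array 1. In the Notch pathway 4 of 14 fell, with Hes1 (-0.9) and Notch1 (-0.5), and 1 rose, Notch4 (0.53); 2 and 3 were higher without day 4 array 1 and array 2, of wild-type or of Gdap1-null cells. In the Hedgehog pathway the receptor and target gene Ptch1 was the single call of 12 (0.52), and 2 were higher without day 4 array 1 or 2.

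Feedback genes of ERK signalling fell in 8 of 16 cases and rose in 3 (9 and 2 without day 4 array 1). The phosphatase gene Dusp5 had levels of 7.08, 6.93 and 7.2 on day 0 and 5.75, 5.83 and 5.84 on day 4. Its paralog Dusp6 had levels of 8.58, 8.87 and 8.47 on day 0 and 7.52, 7.28 and 7.2 on day 4. These and the ETS factor gene Etv4 (-1.23) fell, and Etv1 rose (0.83). Hbegf, an EGF receptor ligand, had levels of 8.08, 8.25 and 8.2 on day 0 and 5.86, 6.29 and 6.01 on day 4 and changed by -2.12 ± 0.1 (SE, n = 3 per group, 4.35-fold, adjusted p = 5.05e-08). Nrg1 (-1.57) and Egfr (-0.47) fell with it. Kitl, the ligand of the Kit receptor, rose (6.26, 6.57 and 6.21 on day 0 and 7.62, 7.9 and 7.68 on day 4), as did Fgfr3 (1.29), while Pdgfc (-1.32) and Hgf (-1.4) fell. Of the 28 growth factor genes 9 were lower and 5 higher (10 and 3 without day 4 array 1), and 3 were higher without any 1 day 0 array.

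Axon guidance genes, which also steer fibroblast and vessel growth, were 13 higher and 15 lower of 32 (12 and 14 without day 4 array 1). Sema3c, Sema3d (5.46, 5.44 and 5.49 on day 0 and 6.91, 7.87 and 7.91 on day 4) and the ephrin receptor gene Epha7 (1.61) rose, and Unc5b, Sema7a (-1.69) and Nrp1, a semaphorin coreceptor (-1.25), fell. Genes of tubulin subunits and their regulators were lower in 9 of 15 cases and higher in 1. Tubb3, the neuronal beta-tubulin, had levels of 8.08, 8.05 and 8.24 on day 0 and 5.64, 5.76 and 6.28 on day 4. Tubb6 (-1.43) and Tuba1a (-0.94) fell with it. Stmn2, a tubulin-binding protein, was higher, with levels of 6.63, 6.42 and 6.37 on day 0 and 8.84, 8.97 and 9.24 on day 4. Of 17 clock genes 4 were higher and 3 lower (3 and 4 without day 4 array 1; lower in 1 case without day 0 array 3 and in none without day 4 array 2 or 3). Dbp, a clock output factor, rose, with levels of 7.18, 7.31 and 7.31 on day 0 and 8.02, 7.96 and 8.0 on day 4. Among 7 metallothionein and zinc genes Mt1 rose (0.74) and none fell. There were 2 higher without day 4 array 2, and 1 higher and 1 lower without day 4 array 1, the latter the zinc transporter gene Slc39a14 (-0.31, adjusted p = 0.0338, against 0.14 and 0.784 with all arrays).

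Markers of cell types other than fibroblasts gave no uniform shift. Fibroblast markers were 2 higher (Dcn and Lum) and 5 lower of 10, and Col3a1, Pdgfra and Vim did not pass; Vim, vimentin, had levels of 12.8, 12.83 and 12.81 on day 0 and 12.73, 12.84 and 12.84 on day 4. Of 13 endothelial markers Tek and Esam (0.63) were higher and Emcn, endomucin (5.09, 5.3 and 5.15 on day 0 and 3.23, 3.01 and 2.99 on day 4), Flt1 (-1.33) and Kdr (-0.54) lower. Pecam1 had levels of 4.67, 4.64 and 4.69 on day 0 and 4.81, 4.45 and 4.52 on day 4. Cdh5 had levels of 4.8, 5.12 and 4.78 on day 0 and 4.84, 4.8 and 5.01 on day 4. Neither passed. Skeletal muscle markers had 1 call of 11, Chrna1 (-0.39, adjusted p = 0.0336), which did not pass without any 1 day 0 array or without day 4 array 1 (adjusted p between 0.0685 and 0.115). Neural and Schwann cell markers had 1 higher and 1 lower of 8. These were Erbb3 (0.45; adjusted p = 0.047, and 0.0577 to 0.156 without any 1 of 8 arrays) and Elavl3 (-0.4; 0.0627 without day 0 array 1 and 0.0594 without day 4 array 2). Mesothelial markers were 4 higher and 1 lower of 7. Msln, mesothelin, had levels of 7.0, 7.0 and 7.06 on day 0 and 8.68, 8.69 and 8.51 on day 4. Krt19, Upk3b (0.93) and Muc16 (0.43) were also higher, and Wt1 fell (6.94, 7.06 and 7.13 on day 0 and 6.46, 6.58 and 6.27 on day 4). The mean of the mesothelial list, centred over the arrays, was 0.13, 0.39 and 0.17 in the day 4 arrays and between -0.25 and -0.20 in the day 0 arrays; its part in the epithelial calls was not tested.

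**Figure D4:**
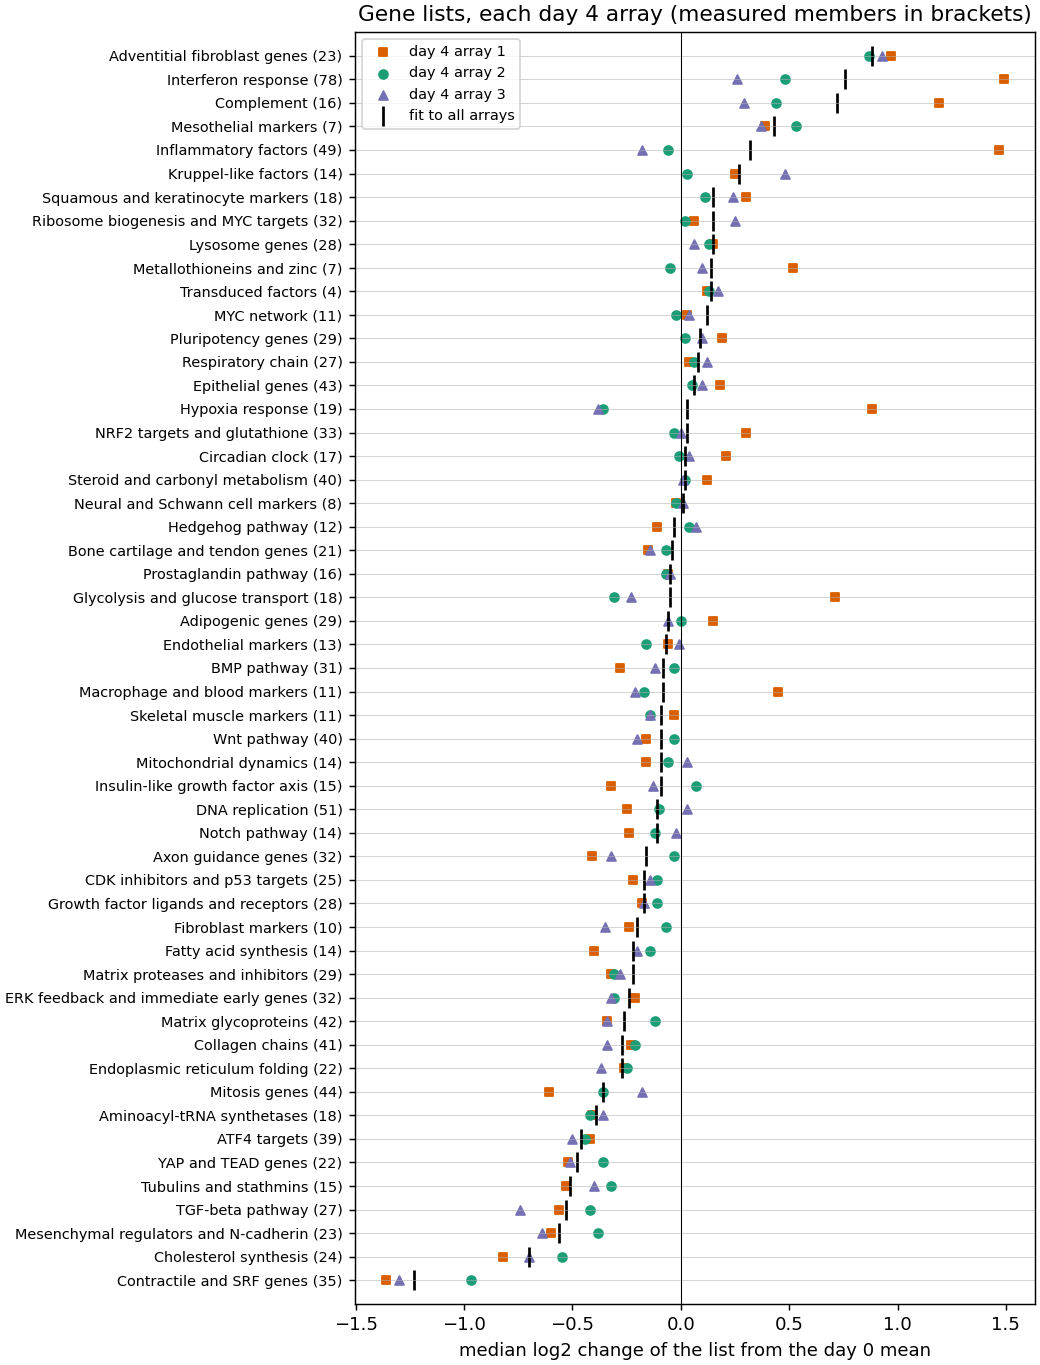
Median log2 change of each gene list from the day 0 mean (x axis) in day 4 arrays 1, 2 and 3 (markers), with the median of the fitted changes as a bar; measured members are in brackets. Contractile genes lie between -1.36 and -0.97 and adventitial genes between 0.87 and 0.97 in all 3 arrays, while the inflammatory list is at 1.47 in array 1 and at -0.06 and -0.18 in arrays 2 and 3.

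Neighbouring genes that changed together at least 2-fold formed 4 runs of 3 genes in the RefSeq gene order. On chromosome 15, Baalc (-1.27), Fzd6, a Wnt receptor (-1.1), and Cthrc1, a secreted protein of activated fibroblasts (-1.99), were lower. At another place on chromosome 15 the surface protein genes Ly6c1 (1.34), Ly6c2 (1.5) and Ly6a2 (1.48) were higher. On chromosome 16, Bcl6, a transcriptional repressor (-1.02), Lpp, a focal adhesion protein (-1.24), and Morf4l1-ps1 (-1.29) were lower. On chromosome 8, Scrg1 (1.04), Sap30 (1.21) and 2500002B13Rik (1.02) were higher. Ly6c1, Ly6c2 and Ly6a2 are close relatives whose probe sets may share transcripts, and Morf4l1-ps1 is named as a pseudogene, so these values are uncertain as to which gene they read.

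The wild-type change was set against that of Gdap1-null fibroblasts by the difference of the changes, which passed for 877 genes (3.95%). In the YAP and TEAD list 8 of 22 differed. Ccn1 changed by -1.47 in wild-type and -0.35 in Gdap1-null cells (difference -1.12 ± 0.13, SE, adjusted p = 0.00117). Ankrd1 changed by -3.41 and -2.23 (adjusted p = 0.00703). Crim1 changed by -1.0 and -0.23 (adjusted p = 0.00453). In the contractile list 5 of 35 differed, among them Tpm2 (-2.36 and -1.07) and Myh11 (-2.41 and -1.11). The number of genes that differed was 2140 without wild-type day 4 array 1 and 395 without wild-type day 0 array 1.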

How the data were processed

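RNA of 12 samples of mouse embryonic fibroblasts was labelled as cDNA and hybridised to 1-colour whole-transcript Affymetrix arrays. The authors deposited 1 log2 value per probe set and array, made with Affymetrix Expression Console per the submitters' processing notes; no source used here gives its version, background correction, normalization or build. The values ran from 1.33 to 13.35 and were used as deposited. Precision is limited by the number of arrays. Of 41345 probe sets, 23521 had 1 gene symbol in the platform annotation, 1814 had several and 16010 had none; the latter kinds were left out. For the 1082 genes with more than 1 probe set, that with the highest mean over the 12 arrays was kept, which left 22180 genes, and 99.82% of the symbols were in the RefSeq gene table.

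Group means of the 4 groups were fitted with limma 3.58.1 (R 4.3.3), with no covariate, and wild-type day 4 minus day 0 was tested (two-sided, moderated statistics, Benjamini-Hochberg adjustment over all genes), as was the wild-type minus Gdap1-null difference of the changes. In data simulated for the wild-type comparison on 22180 genes, 65.7% of genes changed 1.5-fold, 97% changed 2-fold and 100% changed 4-fold were recovered, with 15 false among 190 calls. The simulated noise was independent between arrays, with the same SD for a gene in all groups, and far fewer genes changed than were called here. No simulated array was set apart as day 4 array 1 was, so these rates need not hold for the measured arrays. No batch is named in the labels; batch and group therefore cannot be told apart. Other normalizations, filters, probe-set rules, variance models and leaving out each array were tried.

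The members and the 53 gene lists (1423 genes named, of which 1321 entries were measured) were chosen with earlier results of these data known. Genes were named by rule: 15 rises and 15 falls with the widest gap between the arrays of the 2 days; for each role in a list, at most 4 called members, taken by smallest p (2 members if no member was called), or all of a role with at most 5; 12 genes with day 4 array 1 farthest above and 12 farthest below the other day 4 arrays; promoter genes, 2 with the smallest p for each motif; and runs of at least 3 neighbouring genes changed at least 2-fold. Acta2, Actb, Adgre1, Adm, Anxa3, Aqp3, Bnip3, C1s1, Ccl2, Cd14, Cdh1, Cdh2, Cdh3, Cdh5, Cdkn1a, Cxcl1, Cxcl5, Dpp4, Dsp, Efhd1, Epcam, Esam, Etv1, Fhl2, Il6, Itgam, Klf2, Klf6, Lats2, Limch1, Ltbp2, Lyz2, Muc16, Mylk, Nanog, Ndrg1, Nrp1, Oma1, Pecam1, Ptgs2, Ptprc, Scara5, Sema3d, Shmt1, Slc39a14, Slc7a11, Sting1, Tagln, Tgfb1, Tgfb2, Tgfb3, Tnf, Vim and Yap1 were chosen after their values were seen. Python 3.11.15 was used for tables and figures.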

Additional observations from a re-analysis of the deposited data

Results flagged for a closer look

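Among 381 named genes, 70 differed between wild-type and Gdap1-null fibroblasts in their change from day 0 to day 4. The call was by limma's test of the difference itself at an adjusted p under 0.05. Over all genes 877 did (3.95%). Many genes were named for the size or p of their wild-type change, which is 1 side of this difference. The count of 70 and the directions below are therefore no result about the named genes as a set. Values in brackets are the wild-type minus the Gdap1-null change on the log2 scale. Genes are grouped by the signs of the 2 estimated changes, whether or not each change passed by itself. Gdap1-null changes that did not pass by limma's test include Lum (0.08, adjusted p = 0.809), Cx3cl1 (-0.17, 0.5) and Slc16a1 (0.14, 0.494). Myocd (-0.18, 0.19), Smad6 (-0.16, 0.177), Fhl5 (-0.42, 0.0567) and Crim1 (-0.23, 0.0506) did not pass either. Lower on day 4 in both, and further in wild-type cells, were Acan (-0.79), Adamts6 (-0.84), Ankrd1 (-1.18), Bcl6 (-0.64), Ccn1 (-1.12), Ccn2 (-1.2), Cd44 (-0.43), Coch (-1.72), Col6a3 (-0.49), Crim1 (-0.77), Csrp1 (-0.41), Cthrc1 (-1.05), Cx3cl1 (-1.14), Dkk3 (-1.05), Dlx5 (-0.99), Dusp5 (-0.73), Emcn (-1.36), Fhl5 (-2.49), Gjb2 (-1.91), Hbegf (-1.29), Loxl3 (-0.82), Lpp (-0.65), Map3k7cl (-2.03), Mcam (-1.2), Morf4l1-ps1 (-0.77), Myh11 (-1.29), Myocd (-0.8), Pdgfc (-0.76), Plaur (-0.91), Smad6 (-0.61), Thy1 (-0.58), Tpm2 (-1.29), Trav9d-3 (-1.43) and Unc5b (-1.04). Higher on day 4 in both, and further in wild-type cells, were Akr1c18 (0.52), Dcn (0.7), Kitl (0.81), Krt16 (0.75), Lum (1.5), Pi16 (1.22), Slc16a1 (1.09) and Slurp1 (1.08). Lower in both, and less so in wild-type cells, were Cdc25c (0.55), Fasn (0.78), Nme1 (0.78), Tbx3 (0.61), Tuba1a (0.67) and Twist2 (0.75). Higher in both, and less so in wild-type cells, were Cd9 (-0.55), Dbp (-0.58), Efemp1 (-0.43), Erbb3 (-1.04), Meox2 (-0.67), Msln (-0.99), Per3 (-0.62), Perp (-1.7), Sfrp2 (-0.88) and Slc2a3 (-1.51). The estimated changes had opposite signs, or one was 0, in Cd59a (-0.9), Cmpk2 (3.69), Cyp26b1 (-0.81), Dkc1 (0.8), Fmod (-1.78), Fstl3 (-1.51), Gbp7 (2.13), Ifit1 (3.74), Irgm2 (2.41), Loxl4 (-1.07), Nqo1 (-1.83) and Ptch1 (1.15). In some of the 70 genes day 0 levels already differed, given here for Gdap1-null against wild-type cells. Ifit1 had 10.22, 10.02 and 10.11 against 4.93, 5.27 and 5.28. Cmpk2 had 8.66, 8.78 and 8.61 against 4.85, 5.06 and 4.8. Fhl5 had 3.5, 3.85 and 3.26 against 6.26, 6.54 and 6.41. In Nqo1 they overlapped (8.08, 8.24 and 8.1 against 8.11, 8.16 and 7.98). The part of day 0 levels in the differences was not tested. 

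All 70 still passed without wild-type day 4 array 1. Without a single wild-type day 0 array 39, 40 and 40 passed, without wild-type day 4 arrays 2 and 3 60 and 48, without a Gdap1-null day 0 array 37, 40 and 40, and without a Gdap1-null day 4 array 46, 55 and 47. In all, 35 passed whichever array was left out. No test for a single outlying sample was made within groups of 3; among the array weights estimated by limma, that of wild-type day 4 array 1 was the lowest of 12 (0.314, with the others between 0.586 and 1.758).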

How the results depend on the processing

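Over all genes, counts of wild-type genes higher and lower stayed within 1.5 times the main 2469 and 2603 under the filter, quantile normalization, centring, other probe-set rules, other variance models and the 6 wild-type arrays alone (1978 and 2119). With a 2-fold minimum they were 421 and 358. Leaving out each array gave 1902 to 2644 higher and 2064 to 2653 lower. The 877 genes whose change differed from that of Gdap1-null cells numbered 179 with the 2-fold minimum, 503 with all probe sets tested, 1852 with array weights, and 395 to 2140 with an array left out, the lowest without wild-type day 0 array 1 and the highest without wild-type day 4 array 1; the cause was not tested for the weights. Without wild-type day 4 array 1 the difference from Gdap1-null cells turned negative for Acod1 (-0.8), Cfb (-1.24), Hp (-0.96) and Lcn2 (-1.42), genes chosen for their high level in that array. It ran from these values to 1.65 for Acod1, 0.99 for Cfb, 1.64 for Hp and 1.53 for Lcn2 with another array left out. Same-numbered arrays deviated from their group means with correlations between -0.06 and 0.18, so the numbers were not taken as pairs; with the replicate block 2391 genes were higher, 2540 lower and 801 differed. Of 381 named genes, the calls of 356 held with the 6 wild-type arrays alone (25 lost), 365 without day 4 array 1 (11 lost, 5 gained) and 378 with the replicate block. With 3 arrays a group, changes near the lowest 25% of levels are limited by the background signal.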
